A study of Mus musculus with 8 samples.

Results

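Dppa2, Dppa3, Dppa4, Dppa5a, Lin28a, Lin28b, Zfp42 (Rex1) and Utf1 are genes commonly used as markers of undifferentiated mouse embryonic stem cells (ESCs). These 8 genes, of 18193 measured genes, were taken by symbol. They are covered by 12 of the 45037 probe sets of the array, counting each probe set whose annotation names 1 of the 8 genes and no other. The levels compared were those of R1/E mouse ESCs grown without feeder cells and transfected with an endoribonuclease-prepared siRNA (esiRNA), a pool of short interfering RNAs cut enzymatically from a long double-stranded RNA. In 4 cultures the esiRNA targeted Rad21, a subunit of the cohesin ring, and in 4 control cultures it targeted Luc (luciferase), a transcript that these cells lack. The cells carried no further genetic change according to the labels. For each culture, 80000 cells were transfected with 800 ng of esiRNA, and RNA was taken after 48 h and hybridised to an Affymetrix whole-genome mouse expression array, 1 per culture. The comparison asks how the transcripts of these marker genes stood when Rad21 was depleted. The labels call the 4 arrays of a group biological replicates. They do not say which Rad21 esiRNA was used or whether same-numbered cultures were grown together.

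The proteins behind these markers do different things. Dppa2 and Dppa4 form a heterodimer with SAP DNA-binding domains that activates genes of the 2-cell embryo and keeps developmental promoters free of DNA methylation. Dppa3 (Stella) is a protein of the oocyte and zygote, and in the oocyte it binds Uhrf1 and keeps it from chromatin. Dppa5a (Esg1) is a KH-domain RNA-binding protein. Lin28a and Lin28b are RNA-binding proteins that block the maturation of the let-7 microRNA and bind many mRNAs. Zfp42 is a zinc-finger protein descended from the YY1 family and is the reporter gene most used for the naive state of ESCs. Utf1 is a chromatin-bound factor of undifferentiated cells that limits Polycomb loading at bivalent genes.

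All values below are log2 intensities, and a change is the Rad21 esiRNA mean minus the Luc esiRNA mean, so that a change of -1 is a halving. The brightest probe set of a gene, by its mean over the 8 arrays, gave its main value. A change was called when its limma p-value, adjusted over all probe sets, was under 0.05. Levels of different probe sets depend on their probes and are not compared with each other.

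Rad21 itself fell from 13.67 to 12.08, a change of -1.58 ± 0.21 (SE, limma adjusted p = 0.00222), which left 33.4% of the control level. Its other probe sets gave changes of -0.98 (1455938_x_at, 50.6% of control, adjusted p = 0.0114) and -2.59 (1416162_at, 16.6% of control, adjusted p = 1.64e-04), so all 3 fell but by unequal amounts. Arrays of the same group correlated at 0.998 to 0.999 across probe sets. The first principal component, with 66.2% of the variance, separated the groups, and the second, with 11.6%, separated replicates 1 and 2 from replicates 3 and 4 within both. Replicates 1 and 2 of the Rad21 esiRNA had the lower Rad21 levels, at the brightest probe set 11.69 and 11.75, against 12.37 and 12.52 in replicates 3 and 4. The Luc arrays of replicates 1 and 2 were also lower at this probe set, at 13.62 and 13.42 against 13.83 and 13.79. At 1416162_at they were not, at 8.87 and 8.86 against 8.83 and 8.73. Because the pairs of replicates differed, the changes of the 8 genes are also given in each pair. The cells carried ESC markers: the summed level of 6 of them lay between 16.63 and 16.66 in the control and between 16.19 and 16.21 after Rad21 esiRNA, where 4 of the 6 fell (Esrrb, Klf4, Nanog and Pou5f1) and Sox2 and Sall4 did not pass. All 5 primitive endoderm markers were under 4, near the floor of the values, in either group. Among 5 trophoblast markers Cdx2 rose and Tfap2c fell, and their summed level was 11.88 to 12.10 in the control and 11.08 to 11.52 after Rad21 esiRNA. Tfap2c, with means of 11.97 and 11.31, carried this sum, which therefore fell although Cdx2 went from 3.57 to 4.67. The sum of 5 neural markers was 9.90 to 10.01 and then 9.70 to 9.79, and that of 5 fibroblast markers 5.51 to 5.68 and then 5.25 to 5.45, with 4 of the 5 under 4. Tubb3, with means of 9.58 and 9.25, carried the neural sum, and Tubb3 and Thy1 were the markers that fell in these lists. The 4 measured mesoderm markers, at 6.75 to 7.52 and then 7.05 to 7.20, had no call, but 3 of them were under 4 in both groups. Eomes, also counted with the trophoblast markers, carried this sum with means of 7.01 and 6.95. It changed by -0.49 in replicates 1 and 2 (limma adjusted p = 0.00791) and by 0.36 in replicates 3 and 4 (adjusted p = 0.185). No probe set was found under the listed symbol T (brachyury), and other names of that gene were not searched. These markers therefore say little about mesoderm. The part that these shifts had in the changes below was not tested. In a bulk culture, fewer cells of a type and less RNA per cell cannot be told apart.

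RefSeq promoter windows, from 250 bases before to 50 bases after an annotated start (build GRCm38.p6), matched 4 of the 8 genes. They are shown for a gene that rose and a pair that fell: Lin28a at chr4:134018767-134019066 on the minus strand, Zfp42 at chr8:43306960-43307259 on the minus strand and Utf1 at chr7:139943606-139943905 on the plus strand. Which starts these cells use was not tested. Capitals mark letters that match a searched motif. On both strands, 5 motifs were searched, with their share of all 32851 windows of this length in brackets: the octamer ATTTGCAT bound by Oct4 (1.74%), the Sox core AACAAAG (5.85%), the extended Esrrb half-site AAGGTCA (4.72%), the Klf GT box CCACACCC (3.56%) and the Yy1 core GCCATNTT (6.05%).
Zfp42: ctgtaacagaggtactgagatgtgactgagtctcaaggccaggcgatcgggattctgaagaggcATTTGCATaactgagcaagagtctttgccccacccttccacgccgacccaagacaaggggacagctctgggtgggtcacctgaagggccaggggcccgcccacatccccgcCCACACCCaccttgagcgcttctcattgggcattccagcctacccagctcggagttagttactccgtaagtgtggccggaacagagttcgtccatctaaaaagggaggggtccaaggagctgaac
Utf1: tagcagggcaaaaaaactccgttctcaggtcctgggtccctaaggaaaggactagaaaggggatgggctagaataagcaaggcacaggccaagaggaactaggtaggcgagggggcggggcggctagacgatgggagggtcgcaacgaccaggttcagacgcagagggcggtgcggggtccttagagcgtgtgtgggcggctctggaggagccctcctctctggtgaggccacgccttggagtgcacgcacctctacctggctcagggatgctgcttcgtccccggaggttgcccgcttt
Lin28a: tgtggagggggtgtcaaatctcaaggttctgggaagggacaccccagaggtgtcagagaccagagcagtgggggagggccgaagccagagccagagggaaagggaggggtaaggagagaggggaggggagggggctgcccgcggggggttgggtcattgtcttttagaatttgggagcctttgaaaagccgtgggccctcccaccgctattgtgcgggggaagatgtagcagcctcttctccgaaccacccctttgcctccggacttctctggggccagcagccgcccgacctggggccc
The Zfp42 window holds an octamer that starts 186 bases before the annotated start and a GT box that starts 75 bases before it, and these motifs do not overlap. None of the 5 motifs matched in the other windows, Lin28b included. The Lin28a window ends at 134019066, inside a gene that reaches 134019196. The Lin28b window, chr10:45470152-45470451 on the minus strand, lies well inside a gene that reaches 45486314. These 2 windows therefore surround internal annotated starts, and their lack of matches does not describe the outermost start of either gene. A match is a description of letters, not a bound site.

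Of the 8 genes, 2 rose (Lin28a and Dppa2), 4 fell (Dppa3, Zfp42, Utf1 and Dppa5a) and 2 did not pass the test (Dppa4 and Lin28b). Over all genes measured, 10.1% rose and 12.6% fell, 22.6% in either direction. Most of the 8 genes were bright, and among the 6574 genes with a mean of 8 or more the share called was 42.4%. Of the 12 probe sets 8 were called, against 14.9% of all probe sets. The groups did not overlap in the same 6 of the 8 genes, against 27.8% of all genes. The median change of the 8 was -0.12, beside 0.0033 over all genes. The marker genes therefore did not move as a block: the individual arrays are plotted by gene, and each gene is described in turn.

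**Figure D1:**
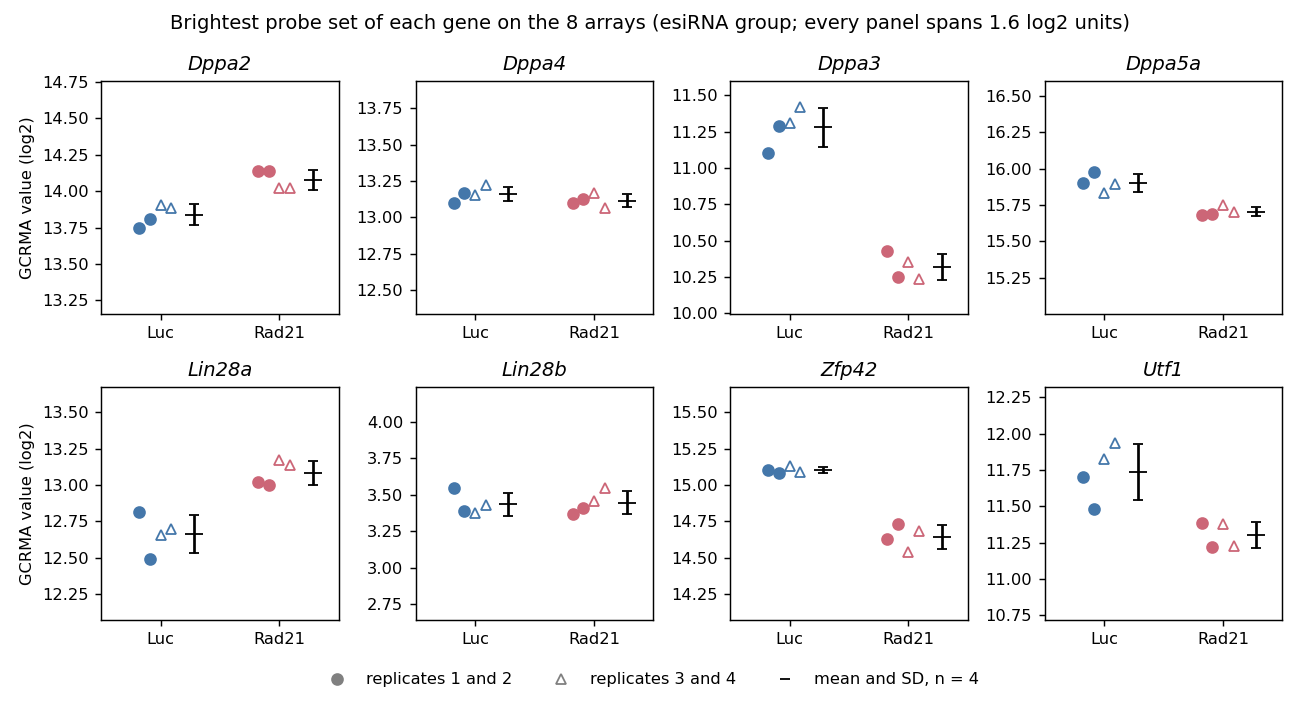
Log2 level of the brightest probe set of each of the 8 genes by array (8 arrays), where circles are replicates 1 and 2, triangles replicates 3 and 4, and the bars the mean and SD of each group (n = 4). Dppa3 and Zfp42 show the widest gaps between groups relative to the spread of the arrays, while Dppa4 and Lin28b overlap.

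Dppa3 had the largest change of the 8 genes. Its only probe set (1424295_at, gene at chromosome 6, 122626424 to 122630271) read 11.10, 11.29, 11.31 and 11.42 on Luc replicates 1 to 4. It read 10.43, 10.25, 10.35 and 10.24 on Rad21 esiRNA replicates 1 to 4. All 4 knock-down arrays lay below all 4 control arrays. The means were 11.28 ± 0.13 and 10.32 ± 0.09 (SD, n = 4), a change of -0.96 ± 0.07 (SE, limma adjusted p = 1.94e-04; 95% interval -1.13 to -0.79), which left 51.4% of the control level. This change was larger in size than that of 96.1% of all genes, but 7894 of these 18193 genes had means under 4, where changes are compressed. Fitted alone, replicates 1 and 2 gave -0.85 (adjusted p = 0.0126), and replicates 3 and 4 gave -1.07 (adjusted p = 0.0123).

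Zfp42 fell less, but on very even arrays. Its only probe set (1418362_at, chromosome 8, 43295067 to 43307009) read 15.10, 15.08, 15.13 and 15.09 in the control and 14.63, 14.73, 14.54 and 14.68 after Rad21 esiRNA. Every knock-down array was lower, and the control arrays hardly varied. The means were 15.10 ± 0.02 and 14.64 ± 0.08 (SD, n = 4), a change of -0.46 ± 0.04 (SE, limma adjusted p = 4.11e-04; interval -0.55 to -0.36), or 72.9% of control. Replicates 1 and 2 alone gave -0.41 (adjusted p = 0.0180), as against -0.50 from replicates 3 and 4 (adjusted p = 0.0363). Zfp42 lay near the top of the scale, at percentile 99.3 of gene levels. Whether changes are reported alike at that level was not tested. This is the gene whose window, printed above, holds the octamer and the GT box, and the fall of Pou5f1 and Klf4, factors that bind such motifs, is given with the markers. Whether these are related was not tested.

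Utf1 has 3 probe sets. The brightest (1416899_at, chromosome 7, 139943856 to 139945112) read 11.70, 11.48, 11.82 and 11.93 in the control and 11.39, 11.22, 11.38 and 11.23 after Rad21 esiRNA. The groups did not overlap, but Luc replicate 2 came close to the highest knock-down array. The change was -0.43 ± 0.10 (SE, means 11.74 ± 0.19 and 11.30 ± 0.09, SD, n = 4; limma adjusted p = 0.0222), or 74.0% of control. It was -0.29 in replicates 1 and 2 (adjusted p = 0.192) and -0.58 in replicates 3 and 4 (adjusted p = 0.0412). The call ended without Luc replicate 1 or 3, or Rad21 esiRNA replicate 2 or 4 (adjusted p = 0.0534, 0.0615, 0.0647 and 0.0612, with changes of -0.44, -0.41, -0.41 and -0.41). The second probe set (1443786_at) read 7.28, 6.79, 7.05 and 7.21 and then 6.62, 6.40, 6.46 and 6.84. Here Rad21 esiRNA replicate 4 lay above Luc replicate 2, so the groups overlapped, while the change was -0.50 ± 0.13 (adjusted p = 0.0444), split as -0.52 for replicates 1 and 2 and -0.48 for replicates 3 and 4. The third (1458333_x_at) lay between 1.90 and 2.00 on all 8 arrays, at the bottom of the scale, where a change would not be seen.

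Dppa5a fell by a small amount. Its only probe set (1416552_at, chromosome 9, 78367052 to 78368199) read 15.90, 15.98, 15.83 and 15.90 in the control and 15.68, 15.69, 15.75 and 15.70 after Rad21 esiRNA. All knock-down arrays were lower, by a small margin. The change was -0.20 ± 0.03 (SE, means 15.90 ± 0.06 and 15.70 ± 0.03, SD, n = 4; limma adjusted p = 0.00712), or 87.1% of control. It was -0.26 in replicates 1 and 2 (adjusted p = 0.0414) and -0.14 in replicates 3 and 4 (adjusted p = 0.147).

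Lin28a rose at both of its probe sets. The brightest (1437752_at, chromosome 4, 134003330 to 134019196) read 12.81, 12.49, 12.66 and 12.69 in the control. After Rad21 esiRNA it read 13.02, 13.00, 13.17 and 13.14, and each of these arrays was above each control array. The change was 0.42 ± 0.07 (SE, means 12.66 ± 0.13 and 13.08 ± 0.08, SD, n = 4; limma adjusted p = 0.00715; interval 0.25 to 0.59), or 134% of control. It was 0.36 in replicates 1 and 2 (adjusted p = 0.162) and 0.48 in replicates 3 and 4 (adjusted p = 0.0112). The dimmer probe set (1421749_at) read 8.54, 8.60, 8.43 and 8.41 and then 8.71, 8.78, 9.08 and 9.02. It also parted the groups, with a change of 0.40 ± 0.09 (adjusted p = 0.0248). Its rise was unequal between replicate pairs, at 0.17 for replicates 1 and 2 against 0.63 for replicates 3 and 4 (limma interaction, adjusted p = 0.0464).

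Lin28b, the paralog of Lin28a, gave no usable signal. Its probe set (1430803_at, chromosome 10, 45376617 to 45486314) read 3.55, 3.39, 3.37 and 3.43 and then 3.37, 3.41, 3.46 and 3.55. The 2 groups covered nearly the same range, and 7894 of 18193 genes also had means under 4. The difference of 0.01 ± 0.05 (SE, limma adjusted p = 0.960; interval -0.11 to 0.13) is that of a probe set at the low end of its scale and limits nothing about the transcript. Its sign differed between replicates 1 and 2, with -0.078, and replicates 3 and 4, with 0.10.

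Dppa2 and Dppa4 lie next to each other on chromosome 16 (48310274 to 48319513 and 48283735 to 48294292), 15.982 kb apart. The brightest Dppa2 probe set (1453223_s_at) read 13.75, 13.81, 13.91 and 13.88 in the control and 14.14, 14.14, 14.02 and 14.02 after Rad21 esiRNA. Every knock-down array was higher, and the gap was wider in replicates 1 and 2. The change was 0.24 ± 0.05 (SE, means 13.84 ± 0.07 and 14.08 ± 0.07, SD, n = 4; limma adjusted p = 0.0117), or 118% of control. It was 0.36 in replicates 1 and 2 (adjusted p = 0.0165) and 0.13 in replicates 3 and 4 (adjusted p = 0.0608), and this difference did not pass (interaction adjusted p = 0.101). The other Dppa2 probe set (1429654_at) did not show the rise. It read 13.12, 13.14, 13.30 and 13.32 and then 13.28, 13.31, 13.24 and 13.12, a difference of 0.02 ± 0.06 (adjusted p = 0.950) that was 0.16 in replicates 1 and 2 but -0.12 in replicates 3 and 4. The mean of both probe sets differed by 0.13 (adjusted p = 0.121), so the Dppa2 rise rests on 1 of 2 probe sets.

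The Dppa4 probe set (1429597_at) read 13.10, 13.17, 13.16 and 13.22 in the control and 13.10, 13.13, 13.17 and 13.07 after Rad21 esiRNA. The groups overlapped. The difference was -0.05 ± 0.03 (SE, limma adjusted p = 0.532), and its interval of -0.12 to 0.03 bounds how far the mean level of this probe set differed. It was -0.02 in replicates 1 and 2 alone, as against -0.07 in replicates 3 and 4.

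**Figure D2:**
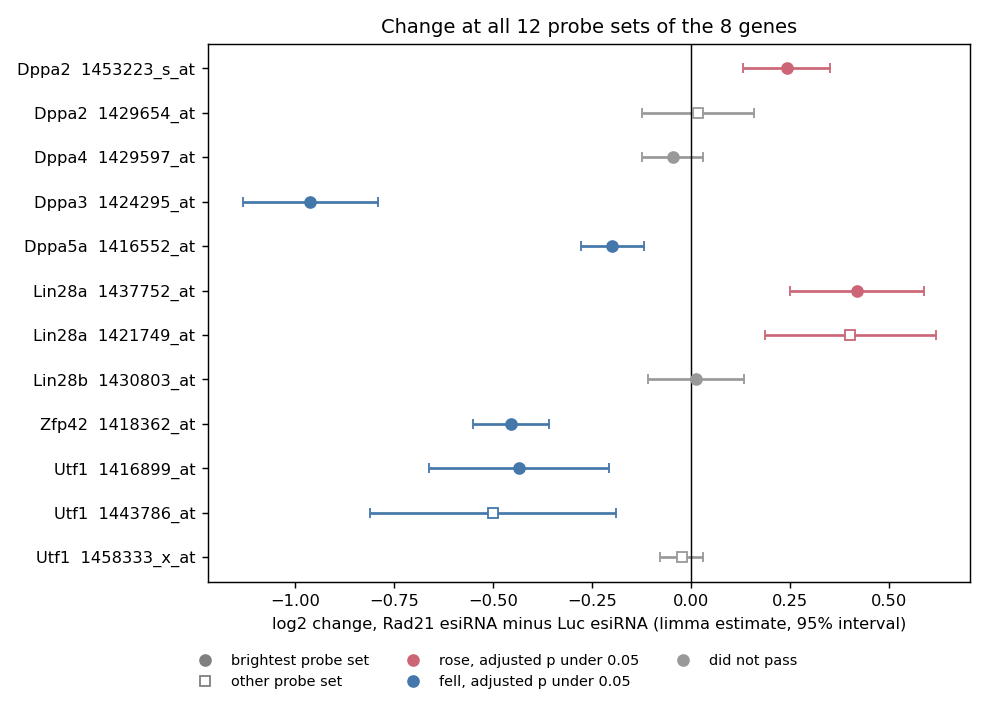
Change at each of the 12 probe sets of the 8 genes (log2, Rad21 esiRNA minus Luc esiRNA, 4 arrays per group) with its 95% interval from the limma fit. Filled circles are the brightest probe set of a gene and open squares the others, which moved alike for Lin28a and for a pair of Utf1 probe sets but not for Dppa2.

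Whether paired genes moved by unequal amounts was tested on their difference within each array. An exact two-sided permutation test was run over the 70 ways to split 8 arrays, for which the smallest possible p is 0.0286, with adjustment over 4 pairs. The genes of a pair are not always of the same family. At its brightest probe set Dppa2 rose relative to its partner and neighbour Dppa4 by 0.29 ± 0.05 (SE, 95% interval 0.10 to 0.40, exact p = 0.0286, adjusted p = 0.0381). With the other Dppa2 probe set, a comparison chosen after seeing the data, the difference was 0.064 ± 0.049 and did not pass (exact p = 0.257, adjusted p = 0.343). Dppa3 fell further than Dppa5a, by -0.76 ± 0.09 (interval -0.98 to -0.45, exact p = 0.0286, adjusted p = 0.0381). These 2 genes share a name but not a described function. Dppa5a lay near the top of the scale, at percentile 99.9 of gene levels, and whether changes are reported alike at that level was not tested. The pair of Lin28a and Lin28b was the remaining one in the adjustment, but since the Lin28b probe set cannot report a change, its test only restates the rise of Lin28a and is not used. For Zfp42 against Utf1 the difference was -0.02 ± 0.13, with an interval from -0.44 to 0.36 (exact p = 0.886), which is wider than either change.

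**Figure D3:**
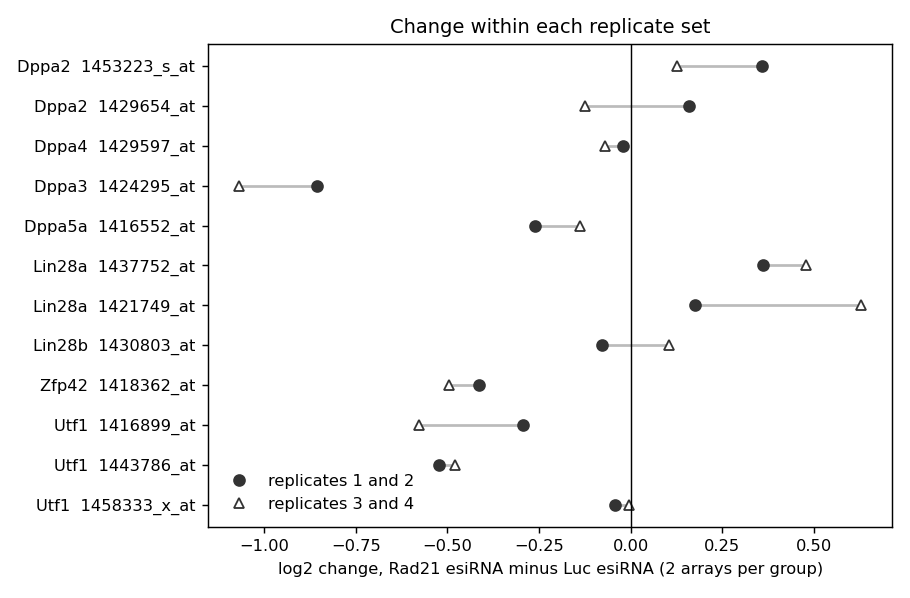
Change at each of the 12 probe sets (log2, Rad21 esiRNA minus Luc esiRNA) computed in replicates 1 and 2 alone and in replicates 3 and 4 alone, 2 arrays per group each. At their brightest probe set the 6 called genes kept their direction in both pairs of replicates, while Lin28b and the other Dppa2 probe set changed sign.

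Other genes known from undifferentiated ESCs gave a setting for these changes. Beside the counts of this and the following lists stand 22.6% called over all genes and 42.4% of those with a mean of 8 or more. Of 26 listed genes 23 were measured, of which 2 rose, 15 fell and 6 did not pass, with a median change of -0.76. The larger falls were those of Prdm14, -2.25 ± 0.10, and of Tbx3, Nr0b1, Fgf4 and Tfcp2l1, at -2.17, -1.73, -1.71 and -1.61 (limma adjusted p at most 6.48e-04). The risers were Dnmt3l, a cofactor of de novo DNA methylation, at 0.55 ± 0.03 (adjusted p = 5.02e-05), and Gdf3, a TGF-beta family ligand, at 0.23 ± 0.05 (adjusted p = 0.0297). The Gdf3 call ended without Luc replicate 1 or 2 or Rad21 esiRNA replicate 1, 2 or 3 (adjusted p up to 0.0824), and it rose by 0.35 in replicates 1 and 2 (adjusted p = 0.0245) but had 0.11 in replicates 3 and 4 (adjusted p = 0.367). The change of Dppa3, -0.96, lay beyond the median of this list, and those of Zfp42, Utf1 and Dppa5a fell short of it.

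**Figure D4:**
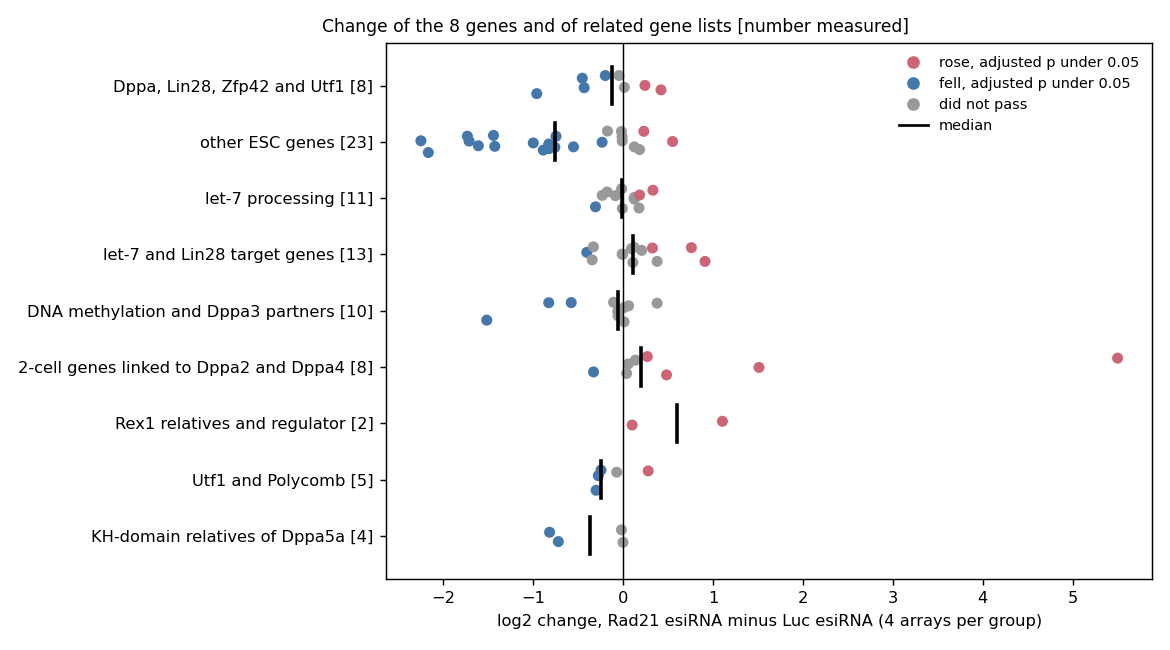
Change of each measured gene (log2, Rad21 esiRNA minus Luc esiRNA, brightest probe set) in the 8 marker genes and in 8 lists of related genes, with the number measured in brackets and the median as a black bar. Other ESC genes lie mostly to the left of 0, and the let-7 processing genes around 0.

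Dppa3 acts on DNA methylation, and 10 listed genes of that machinery were measured: 3 fell and 7 did not pass, with a median of -0.06. Dnmt3l, which rose, also belongs to that machinery but was counted with the other ESC genes. The share called in this list lay between those of all genes (22.6%) and of genes with a mean of 8 or more (42.4%). The count itself therefore does not set these genes apart. The falls were Tet2 (-1.52 ± 0.10, limma adjusted p = 8.91e-05) and Tet1 (-0.58 ± 0.10, adjusted p = 0.00751), which oxidise methylcytosine, and Zfp57 (-0.83 ± 0.11, adjusted p = 0.00220), which guards methylated imprints. Uhrf1, the binding partner of Dppa3, differed by 0.01 (adjusted p = 0.975), and Dnmt1, the maintenance methyltransferase that Uhrf1 recruits, by -0.06.

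Lin28a stands upstream of let-7. Among 11 genes listed for let-7 processing, with the let-7 target Trim71 counted among them, 2 rose, 1 fell and 8 did not pass, with a median of -0.0097. Drosha, the nuclease that cuts primary microRNAs, rose by 0.33 ± 0.04 (limma adjusted p = 0.00246), and Ago2, which holds the mature microRNA, fell by 0.31 (adjusted p = 0.00475). Trim71, a let-7 target that promotes decay of mRNAs, rose by 0.18 (adjusted p = 0.0340), a call that ended without any 1 of Luc replicates 1, 3 and 4 and Rad21 esiRNA replicates 1, 2 and 3 (adjusted p up to 0.0918). Of 16 listed targets of let-7 or Lin28, 13 were measured: 3 rose, 1 fell and 9 did not pass, with a median of 0.11. In the processing list and in this one, the share called lay between 22.6% (all genes) and 42.4% (genes with a mean of 8 or more). The counts therefore do not set either list apart. Among the targets, the called genes were as follows. Tgfbr1, a TGF-beta receptor, rose by 0.91 ± 0.05 (adjusted p = 5.37e-05), Igf2bp3, an mRNA-binding protein, by 0.76 ± 0.08 (adjusted p = 8.94e-04) and Mycn by 0.32 ± 0.04 (adjusted p = 0.00116). Cdc25a, a cell cycle phosphatase, had a change of -0.41 ± 0.07 (adjusted p = 0.00721). The let-7 microRNA itself was not analysed here.

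Dppa2 and Dppa4 are known activators of 2-cell genes. A list of 14 genes held such genes and also the germline factors Mael and Morc1, and 8 of the 14 were measured. Of these, 4 rose, 1 fell and 3 did not pass, with a median of 0.20, but 5 of the 8 had means under 4. Usp17la, a deubiquitinase of a multi-copy family whose members share sequence, went from 4.51 to 10.01, a change of 5.50 ± 0.11 (limma adjusted p = 1.81e-06), and its probes may read several copies. Zfp352 rose by 1.51 ± 0.35 (adjusted p = 0.0246) from a level of 3.03 ± 0.04 to 4.54 ± 0.77 (SD, n = 4), a rise with a wide spread. Mael, a factor of the germline piRNA pathway, changed by 0.48 ± 0.13 (adjusted p = 0.0470), and Duxf3, a homeobox activator of 2-cell genes, by 0.27 ± 0.06 between means of 3.39 and 3.66 (adjusted p = 0.0298). Morc1, a germline silencing factor, changed by -0.33 ± 0.08 (adjusted p = 0.0293). The calls of these last 4 genes were fragile. That of Zfp352 ended when a single Luc array, or Rad21 esiRNA replicate 1 or 4, was left out (adjusted p up to 0.0639), and that of Mael without Luc replicate 1, 2 or 4 or Rad21 esiRNA replicate 1, 3 or 4 (up to 0.119). That of Duxf3 ended without Luc replicate 2, 3 or 4 or Rad21 esiRNA replicate 2 or 3 (up to 0.0819), and that of Morc1 when a single Luc array, or Rad21 esiRNA replicate 1 or 2, was left out (up to 0.0769).

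For Zfp42 and Utf1 the related genes are few. Rlim, the ubiquitin ligase that targets the Rex1 protein for degradation, rose from 11.10 to 12.20, a change of 1.10 ± 0.06 (limma adjusted p = 3.22e-05), and by 1.10 in both pairs of replicates. Yy1, from whose family Zfp42 derives, differed by 0.10 ± 0.03 (adjusted p = 0.0485), a call that ended without any 1 of 7 arrays, all but Luc replicate 2 (adjusted p up to 0.124). Of 5 Polycomb genes, Suz12, Eed and Mtf2 fell by 0.30, 0.28 and 0.25 (adjusted p = 0.00240, 0.001 and 8.77e-04), and Jarid2 rose by 0.28 (adjusted p = 0.00851). Ezh2, the catalytic subunit, had -0.07 (adjusted p = 0.383). Among 4 measured KH-domain relatives of Dppa5a, Khdc3 and Ooep, which belong to the maternal complex of the oocyte and early embryo, changed by -0.82 ± 0.08 and -0.72 ± 0.08 (adjusted p = 5.20e-04 and 7.66e-04). Khdc1a and Khdc1b were under 4 in both groups and had -0.02 and -0.0024.

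The neighbours of these genes, taken as the 2 nearest measured protein-coding genes on each side in the order of RefSeq genes, moved in both directions. Dppa3 lies between Gdf3, 16.337 kb away, which rose by 0.23, and Nanog, 77.218 kb away, which had -0.83 (limma adjusted p = 3.52e-05). The next genes, Slc2a3 (-0.33, adjusted p = 0.0508) and Apobec1 (-0.26, adjusted p = 0.122), did not pass. Ooep, 8.704 kb from Dppa5a, fell with it, as given above, while Ddx43 had -0.30 (adjusted p = 0.209). Kndc1, 2.316 kb from Utf1, fell by more than Utf1, with -1.13 ± 0.12 (adjusted p = 7.70e-04). Triml1, 114.573 kb from Zfp42, had -0.44 (adjusted p = 0.00858), split as -0.27 for replicates 1 and 2 (adjusted p = 0.0523) and -0.62 for replicates 3 and 4 (adjusted p = 0.00619). Frg1, the next gene on the same side at 1877.929 kb, had -0.29 (adjusted p = 0.0180), a call that ended without Luc replicate 2 or Rad21 esiRNA replicate 1 (adjusted p = 0.0503 in each case).

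Around Lin28a the neighbours did not rise. Dhdds, 2.373 kb away, had -0.21 (limma adjusted p = 0.183), Arid1a -0.17 (adjusted p = 0.0613) and Crybg2, 41.535 kb away, -0.98 (adjusted p = 9.68e-04). Beside Dppa2, Morc1 at 111.724 kb is the gene with -0.33 above, and Nectin3 had -0.09. Next to Lin28b, Hace1 had 0.47 (adjusted p = 0.0483) and Popdc3, under 4 in both groups, 0.16 (adjusted p = 0.0389). Both calls ended without any 1 of 7 arrays, all but Rad21 esiRNA replicate 3 for Hace1 and replicate 2 for Popdc3 (adjusted p up to 0.124 and 0.102). The other neighbours, Trat1, Cd96, Gsta2, Omt2b, Cd52, Bves, Grik2, Adam26a, Adam34, Adgra1, Spef1l and Adam8, had no call.

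**Figure D5:**
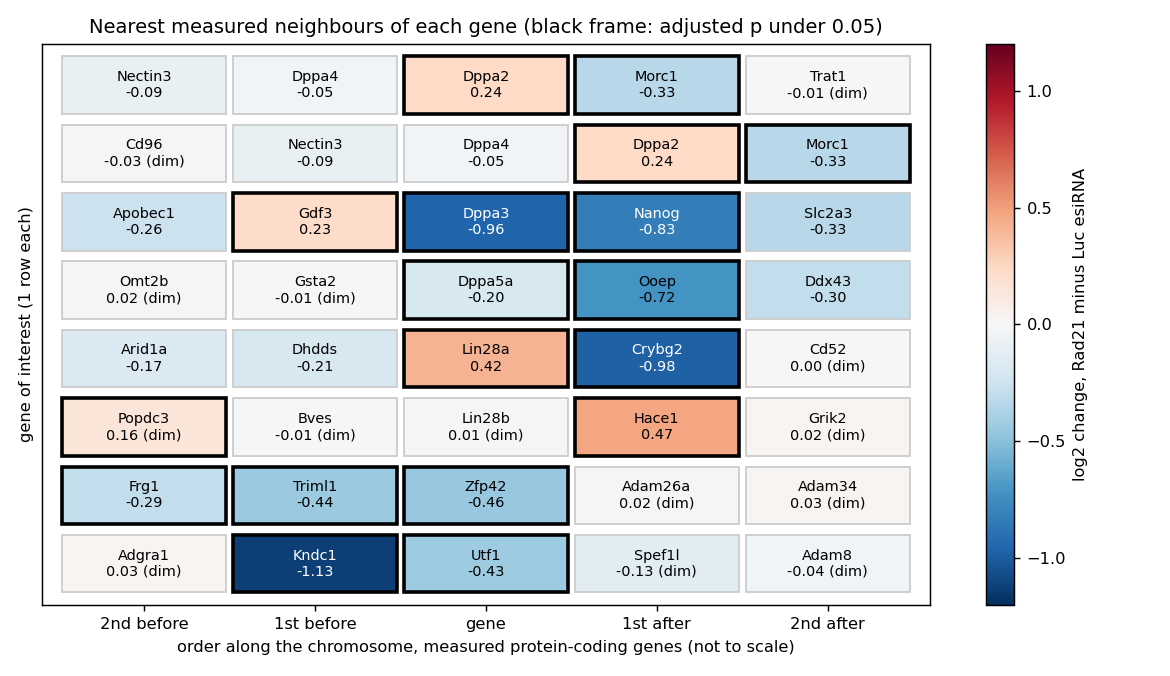
Change of each of the 8 genes and of its nearest measured neighbours in RefSeq order (log2, Rad21 esiRNA minus Luc esiRNA), plotted by position in that order and not by distance. Neighbours with opposite directions lie side by side around Dppa3 and Lin28a.

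The genes whose pattern over the 8 arrays was most like that of each marker, by Pearson correlation among 8839 genes with a mean of 6 or more, were the following, and since every point carries the shift between groups the correlations describe that shift as much as anything else. For Dppa3 they were Clta (r = 0.997), Mapt (0.996) and Mks1 (0.995). For Zfp42 they were Ufl1 (0.992), Sik1 (0.991) and Gjc1 (0.990), and for Utf1 Capns1 (0.991), Cnnm2 (0.985) and Chd2 (0.976). Dppa5a was most like Lsm10 (0.997), Phf23 (0.994) and Psma2 (0.993). Lin28a was most like Mtmr6 (0.983), Nae1 (0.983) and Nudt4 (0.980), and Dppa2 most like Zfp871 (0.987), Cdc42bpg (0.986) and Ckap2 (0.986). Dppa4, which did not separate the groups, was closest to Madd (0.956), Sall4 (0.919) and Ddx24 (0.916). Lin28b, with a mean under 6, was not compared. None of the 7 marker genes compared was among the nearest 3 genes of another.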

How the data were processed

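Total RNA of 4 Rad21 esiRNA and 4 Luc esiRNA cultures was labelled and hybridised to single-colour arrays. The deposited values are log2 intensities that, per the submitters' processing notes, the authors computed with GCRMA in Partek 6.4. GCRMA subtracts background by probe sequence and equalises the distributions of arrays, which compresses dim probe sets into a low plateau and hides a change common to all transcripts. Array medians were 3.08 to 3.16. Array number, 4 per group, limits the precision.

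The deposited values were used without further normalization, and 64 control probe sets were left out. Genes were named through the platform annotation, and 34741 of 34945 probe sets with 1 symbol were found in RefSeq (GRCm38.p6) by Entrez ID. Groups were compared with limma 3.58.1 (lmFit, eBayes) in R 4.3.3, and the Benjamini-Hochberg adjustment ran over all 45037 probe sets. Pairs of genes were compared by exact permutation. On simulated data with 200 changed probe sets, 71.9%, 88.4% and 98.2% of changes of 0.5, 1 and 2 were recovered, and 5.7% of calls were false. In the data 6697 probe sets were called. The adjustment was thus stricter in the simulation, and the shares recovered there do not describe this comparison. P-values measure the spread between these cultures.

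The genes, lists and tests were chosen with earlier results of these data known. Named were all probe sets of the 8 genes, up to 5 called genes per list and direction (all measured genes in lists of 5 or fewer), the nearest neighbours and the 3 most similar genes. Tried besides were an unmoderated analysis of variance (the test of the study), other variance priors, blocks, fits within replicate pairs, filters, scalings, array weights, probe set averages, a threshold of 0.01 and each array left out.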

Additional observations from a re-analysis of the deposited data

Results flagged for a closer look

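The dimmer Lin28a probe set (1421749_at) changed by unequal amounts in the pairs of replicates. The rise in replicates 3 and 4 exceeded that in replicates 1 and 2 by 0.46 (limma interaction, adjusted p = 0.0464). This was 1 of the 12 probe sets of the 8 genes, and 350 of 45037 probe sets, 0.777%, passed the same test. Rad21 was lower in Rad21 esiRNA replicates 1 and 2, where this rise was smaller. At the brightest Rad21 probe set it was also lower in Luc replicates 1 and 2. The brightest Lin28a probe set rose by 0.36 and 0.48 in the same pairs. The part of the Rad21 level or of an unlabelled batch in this was not tested.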

How the results depend on the processing

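Dppa3, Zfp42 and Dppa4 kept their direction and their side of the threshold in all 20 alternatives, with changes of -1.07 to -0.85 for Dppa3 (highest limma adjusted p = 0.0126), -0.50 to -0.41 for Zfp42 (highest 0.0363) and -0.071 to -0.016 for Dppa4. The rise of Dppa2 did not pass with the replicate number as a replicate block (0.24, adjusted p = 0.0732), in replicates 3 and 4 alone (0.13, 0.0608), as the mean of its probe sets (0.13, 0.121) or at a threshold of 0.01 (0.24, 0.0117). The number of rising genes was then 1 in place of 2, and also 1 in replicates 1 and 2 alone, where Lin28a had 0.36 (0.162). The fall of Utf1 did not pass in the plain analysis of variance (-0.43, 0.0554), in replicates 1 and 2 alone (-0.29, 0.192) or at 0.01 (-0.43, 0.0222), and with 1 array left out it was -0.52 to -0.37. Dppa5a did not pass in replicates 3 and 4 alone (-0.14, 0.147). These pairs hold 2 arrays per group. Lin28b, near the bottom of the scale, turned to -0.078 in replicates 1 and 2 alone, -0.037 after quantile normalization and -0.0018, -0.0075 and -0.021 without Luc replicate 2, Luc replicate 3 and Rad21 esiRNA replicate 4, within -0.021 to 0.050 over all arrays left out, and was not tested with dim probe sets removed. Without 1 replicate number, 3 arrays against 3 cannot give an exact p under 0.10 (adjusted p = 0.133), and the differences ranged from 0.25 to 0.35 for Dppa2 minus Dppa4, -0.87 to -0.69 for Dppa3 minus Dppa5a, 0.38 to 0.43 for Lin28a minus Lin28b (not used, since Lin28b is at the low end) and -0.13 to 0.025 for Zfp42 minus Utf1 (0.025, 0.0006, 0.020 and -0.13 without replicates 1 to 4). With the other Dppa2 probe set, Dppa2 minus Dppa4 was 0.064 (adjusted p = 0.343). The cause of these changes was not tested. Same-numbered arrays of the groups correlated at 0.02, 0.13, 0.07 and 0.13 in their deviations from the group means, so the numbers were not taken as pairs, and the block moved the calls over all probe sets from 6697 to 6224 and changed no other call among the 8 genes. Of 46 called genes of the lists and neighbours, 0 changed sign in 18 alternatives (17 for the dim Duxf3, Zfp352 and Popdc3). For these genes the mean of all probe sets and the threshold of 0.01 were not tried. Their other probe sets are not given here. Of the 46, 27 kept their call in all of the alternatives tried, and 11 lost it in some setting other than the replicate pairs, namely Nr5a2 (adjusted p up to 0.125 with 1 array left out) and the 10 described as such above. A further 8 lost it only within a replicate pair of 2 arrays per group: Ago2 (0.0982 and 0.0538) and Cdc25a (0.0760 and 0.104) in both, Mtf2 (0.0779), Jarid2 (0.0859) and Triml1 (0.0523) in replicates 1 and 2, and Drosha (0.0907), Mycn (0.0528) and Suz12 (0.0756) in replicates 3 and 4. Quantile normalization and centring on bright probe sets shifted the median by -0.0066 and 0.03.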
